A study of Irpex lacteus with 9 samples.

Results

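The 6 libraries of Irpex lacteus grown on wheat straw with an inorganic nitrogen salt, 3 with NH4Cl and 3 with NaNO3, were set as one side against the 3 libraries with distilled water. A gene was described when all 6 salt libraries lay above, or all 6 below, all 3 water libraries. Of 19212 genes in the deposited table, 14808 had enough counts to be tested, and 1764 of these had sides that did not overlap. The 6 salt libraries lay above water for 579 genes and below water for 1185 genes. Irpex lacteus is a white-rot fungus of the order Polyporales. The labels give no strain, concentration, culture time or temperature, and no group lacked straw. Nothing in them tells if the 3 libraries of a group came from separate cultures, and the p-values below therefore cover the spread between these libraries and no more. The species is taken from the organism field, although the description of the design speaks of Tricholoma album.

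White-rot fungi decay lignin and cellulose with secreted enzymes, and straw offers them much carbon and little nitrogen. Fungi take up ammonium directly, reduce nitrate to ammonium by way of nitrite, and assimilate it into glutamate and glutamine. Proton pumping at the plasma membrane, β-oxidation of fatty acids, the citrate cycle and respiration supply the uptake and the energy for this growth, and the proteasome recycles proteins into amino acids.

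The libraries summed to between 17896230 and 23194078 counts, and no pair of libraries was identical. The 3rd NH4Cl library and the 1st NaNO3 library stood apart from the other salt libraries. Class II peroxidases, the lignin-attacking enzymes of white-rot fungi, took 2.54% and 0.888% of their counts, against 4.54% to 6.88% in the other 7 libraries. Cellulases, lytic polysaccharide monooxygenases (LPMOs) and cellobiose dehydrogenases took 1.77% and 0.668%, against 0.176% to 0.387% elsewhere. The part of these libraries in the results was not tested beyond the fits without them given below. No gene was annotated to the plant photosystem list, so straw RNA could not be followed by it.

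Genes lower with the salts outnumbered genes higher with them. The share of genes tested with all salt libraries below water was 8.00%, and the share with all above was 3.91%. Counts were put on one scale as CPM (counts per library, scaled by its total and a TMM factor) before the sides were compared, since depth differed between libraries. On unscaled counts 143 genes lay above and 1447 below. With the deposited FPKM, which also divide by gene length, the numbers were 660 above and 894 below. Genes lower with salts took 4.32% to 6.50% of the counts in salt libraries and 10.6% to 12.5% in water libraries. Genes higher with salts took 3.29% to 5.61% in salt libraries and 2.47% to 2.76% in water libraries. These shares describe the choice and test nothing. In bulk RNA, fewer hyphae in a given state and less RNA of a gene in each cannot be told apart.

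edgeR's quasi-likelihood test with Benjamini-Hochberg adjustment, run on all 14808 genes, called 546 genes lower (3.69%) and 97 genes higher (0.655%) with salts at an adjusted p under 0.05. Of the genes with separate sides, 482 of 1185 were called lower and 85 of 579 were called higher. The same contrast chose these genes, so nothing is read from that share. A further 64 called lower and 12 called higher had overlapping sides. Below, "rose" and "fell" are kept for called genes, and a log2 change is the mean of both salts minus water with its standard error. The calls depended on single libraries: none remained without the 2nd or without the 3rd water library, and 1 gene lower and 0 higher were called without the 3rd NaNO3 library, a gene that was not among the 643. At an unadjusted p under 0.05 those fits still held 2021, 2234 and 2963 genes, against 3218 with all libraries, and the lowest adjusted p of the fit was 0.0128. Without the 2 libraries that stood apart, 796 genes were called lower and 271 higher. Called genes below are given with the number of the 9 fits, each without 1 library, that kept their call, and 6 is therefore the most a gene reached. Counts of calls in a gene list are edgeR's unless DESeq2's test is named. That test called 916 lower and 595 higher of all 14808 genes, and where its list counts are given they stand beside these numbers.

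**Figure D1:**
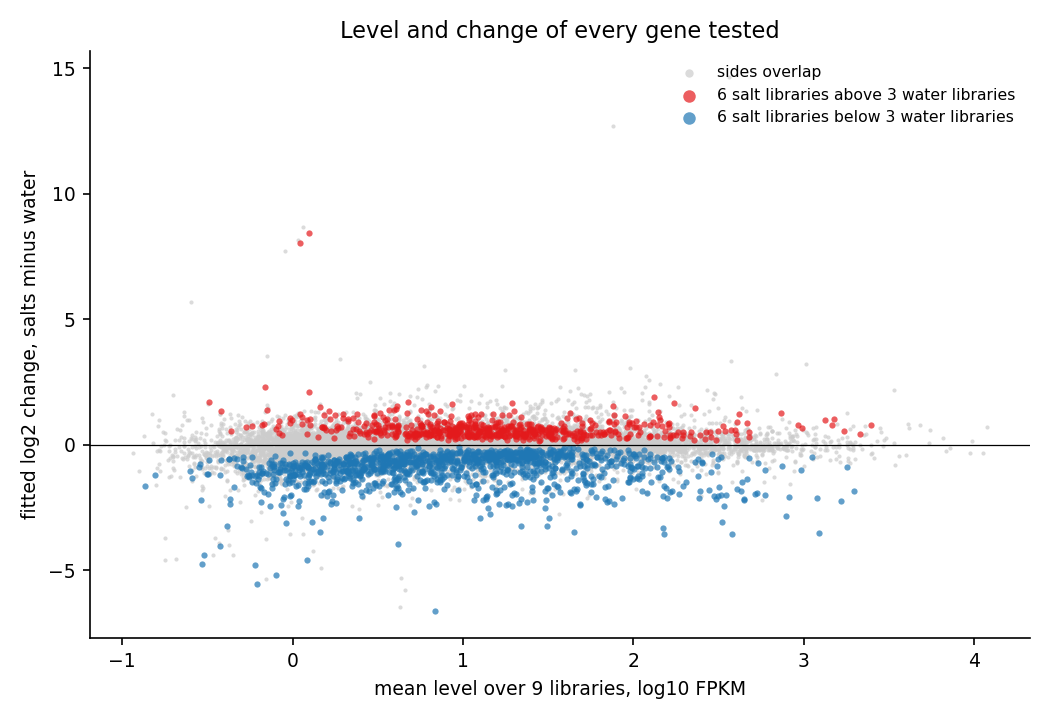
Each point is 1 of the 14808 genes tested, by its mean level over 9 libraries (log10 FPKM, x axis) and its fitted log2 change, salts minus water (y axis). Red points are the 579 genes with all 6 salt libraries above water, blue points the 1185 with all 6 below, and grey points the rest. Blue points reach further from 0 than most red ones, and both colours run over the whole range of levels.

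The falls were also larger. Among the 1185 lower genes the median log2 change was -0.825, from -1.85 at the lower decile to -0.362 at the upper decile. Among the 579 higher genes the median was 0.558 (deciles 0.313 and 1.05), and over all genes tested it was -0.0194. The nearest salt and water libraries were at least 1.5-fold apart for 165 lower genes and for 5 higher genes. The higher genes had a median level of 13.7 FPKM, the lower genes 7.90 FPKM and all genes tested 8.40 FPKM. Set apart by salt, the medians of the lower genes were -0.741 for NH4Cl and -0.868 for NaNO3, and those of the higher genes 0.512 and 0.572, each against the same water libraries. Of the higher genes, 2 had no count in any water library. Genes new to the annotation made up 16.1% of the higher genes, 22.3% of the lower genes and 22.6% of those tested. At the edge of the rule, on the higher side, stood a gene for the cohesin subunit SMC1 (NewGene_485), with a lowest salt library and a highest water library that both read 22.1 CPM. Just outside it stood a Δ12 fatty acid desaturase (BC629DRAFT_1496396), with 728 CPM in its lowest salt library and the same in its highest water library. On the lower side an iron-sulfur assembly protein (BC629DRAFT_1277540) stood just inside, with 13.2 CPM in its highest salt library and also in its lowest water library. An acyl-CoA dehydrogenase (BC629DRAFT_1560887) stood just outside, with 40.9 CPM in its highest salt library and 40.7 CPM in its lowest water library.

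The 1st NH4Cl library and the 1st water library most often bounded the gap. Of the lower genes, 510 (43.0%) had the 1st NH4Cl library as the salt library nearest to water, and 629 (53.1%) had the 1st water library as the water library nearest to the salts. For the higher genes these numbers were 174 (30.1%) and 337 (58.2%). The 1st NaNO3 library lay farthest from water for 243 higher genes (42.0%). Without the 1st water library 1282 genes lay above and 1770 below, and without the 1st NH4Cl library 896 above and 1639 below.

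**Figure D2:**
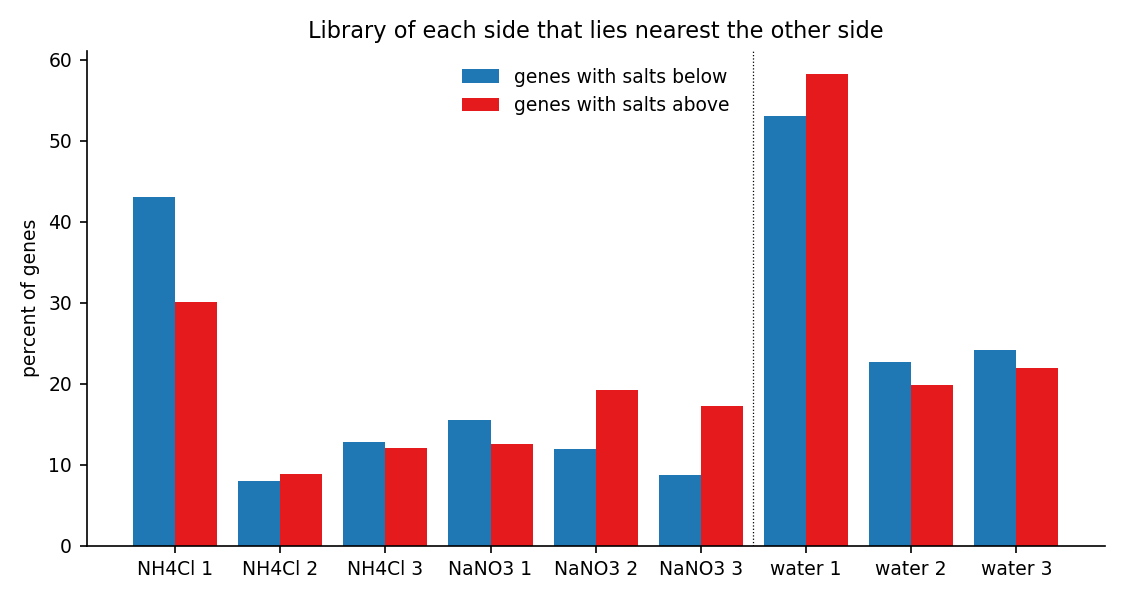
For genes with all salt libraries below water (blue) or above water (red), bars give the percent of genes for which each library is the one of its side nearest to the other side, with salt libraries left of the dotted line and water libraries right of it. The 1st NH4Cl library (43.0% and 30.1%) and the 1st water library (53.1% and 58.2%) hold the highest bars of their sides.

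The largest falls included genes annotated as transcription regulators and opsins. Among called genes with a named product and at least 10 FPKM on their higher side, the largest fall was that of BC629DRAFT_1437891, named for SFP1, a zinc-finger regulator of ribosome-making genes in Saccharomyces cerevisiae. It had 634, 128 and 97.7 CPM in the NH4Cl libraries, 89.6, 112 and 72.9 CPM in the NaNO3 libraries and 1669, 1913 and 2240 CPM in the water libraries. All salt libraries lay far below water, and the 1st NH4Cl library alone lay part of the way back. The log2 change was -3.58 ± 0.53 (adjusted p = 0.0154), between -4.23 and -3.34 when 1 library was left out, and the call was kept in 6 of the 9 fits. A gene named for RGT1, a repressor of hexose transporter genes in yeast (BC629DRAFT_1515137), had 470, 87.2 and 142 CPM with NH4Cl, 119, 30.1 and 29.5 CPM with NaNO3 and 772, 1225 and 969 CPM with water. It fell by a log2 change of -3.07 ± 0.60 (adjusted p = 0.0292, kept in 2 of 9 fits), and again the 1st NH4Cl library was nearest to water.

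Transcription factors with separate sides lay mostly below water. Of 208 tested, 38 (18.3%) had all salt libraries below water and 6 (2.88%) above, beside 8.00% and 3.91% of all genes. The test called 20 lower and 1 higher, beside 3.69% and 0.655% of all genes, and leaving out 1 library gave 0 to 22 lower. Their median log2 change was -0.153. DESeq2's test called 36 of the 208 lower and 7 higher, beside 916 and 595 of all 14808 genes. Falling members included yap1 (BC629DRAFT_1282116), a regulator of the oxidative stress response in yeasts, with 236 ± 64.9 CPM with salts and 436 ± 33.1 CPM with water (SD, n = 6 and 3), a log2 change of -0.90 ± 0.18 (adjusted p = 0.0333, kept in 2 of 9 fits). Outside this list, the gene named for abaA, a conidiophore regulator of Aspergillus (BC629DRAFT_416332), had 255 ± 144 CPM with salts and 866 ± 102 CPM with water, a change of -1.83 ± 0.38 (adjusted p = 0.0339, kept in 3 of 9 fits). CON7 (BC629DRAFT_1243677), which is named for a regulator of conidium shape in Magnaporthe oryzae, was the called rise. It had 23.4 ± 4.69 CPM with salts and 13.1 ± 1.38 CPM with water (SD, n = 6 and 3), a change of 0.82 ± 0.14 (adjusted p = 0.0192, kept in 4 of 9 fits). Its NH4Cl libraries lay above its NaNO3 libraries, and both salts above water.

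FDD123 proteins carry a bacteriorhodopsin-like domain in the Pfam column of the table, and 2 of the 6 tested fell, beside 3.69% of all genes. BC629DRAFT_1436974 had 1156, 340 and 226 CPM with NH4Cl, 149, 116 and 35.7 CPM with NaNO3 and 2010, 3114 and 3166 CPM with water. BC629DRAFT_1669149 had 1144, 414 and 335 CPM with NH4Cl, 186, 288 and 150 CPM with NaNO3 and 1906, 2826 and 3067 CPM with water. In both genes the NaNO3 libraries were lowest and the 1st NH4Cl library highest on the salt side, and the sides did not overlap. The changes were -3.53 ± 0.57 (adjusted p = 0.0177, kept in 5 of 9 fits) and -2.84 ± 0.40 (adjusted p = 0.0150, kept in 6 of 9 fits). Per length these were abundant transcripts, at 2965 and 1781 FPKM with water. A further member, BC629DRAFT_1682186, had 0.528 CPM with salts and 1.28 CPM with water on average, did not overlap and was not called (adjusted p = 0.121), and the sides of the other 3 overlapped. Of those, the gene with the highest mean level, BC629DRAFT_1435165 at 1540 FPKM over all libraries, had a log2 change of -0.58 (adjusted p = 0.614).

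A gene that the KEGG column gives as a PHO85 cyclin, a partner of a kinase of nutrient signalling in yeast, also fell. BC629DRAFT_1241625 had 1007, 356 and 329 CPM with NH4Cl, 323, 213 and 87.5 CPM with NaNO3 and 1397, 1665 and 1363 CPM with water, a change of -2.11 ± 0.45 (adjusted p = 0.0383, kept in 2 of 9 fits). NewGene_1074 had nearly the same values, the ratio of the first to the second lying between 0.862 and 1.05 in every library, so the 2 entries may share reads, which was not tested, and are uncertain as separate genes.

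**Figure D3:**
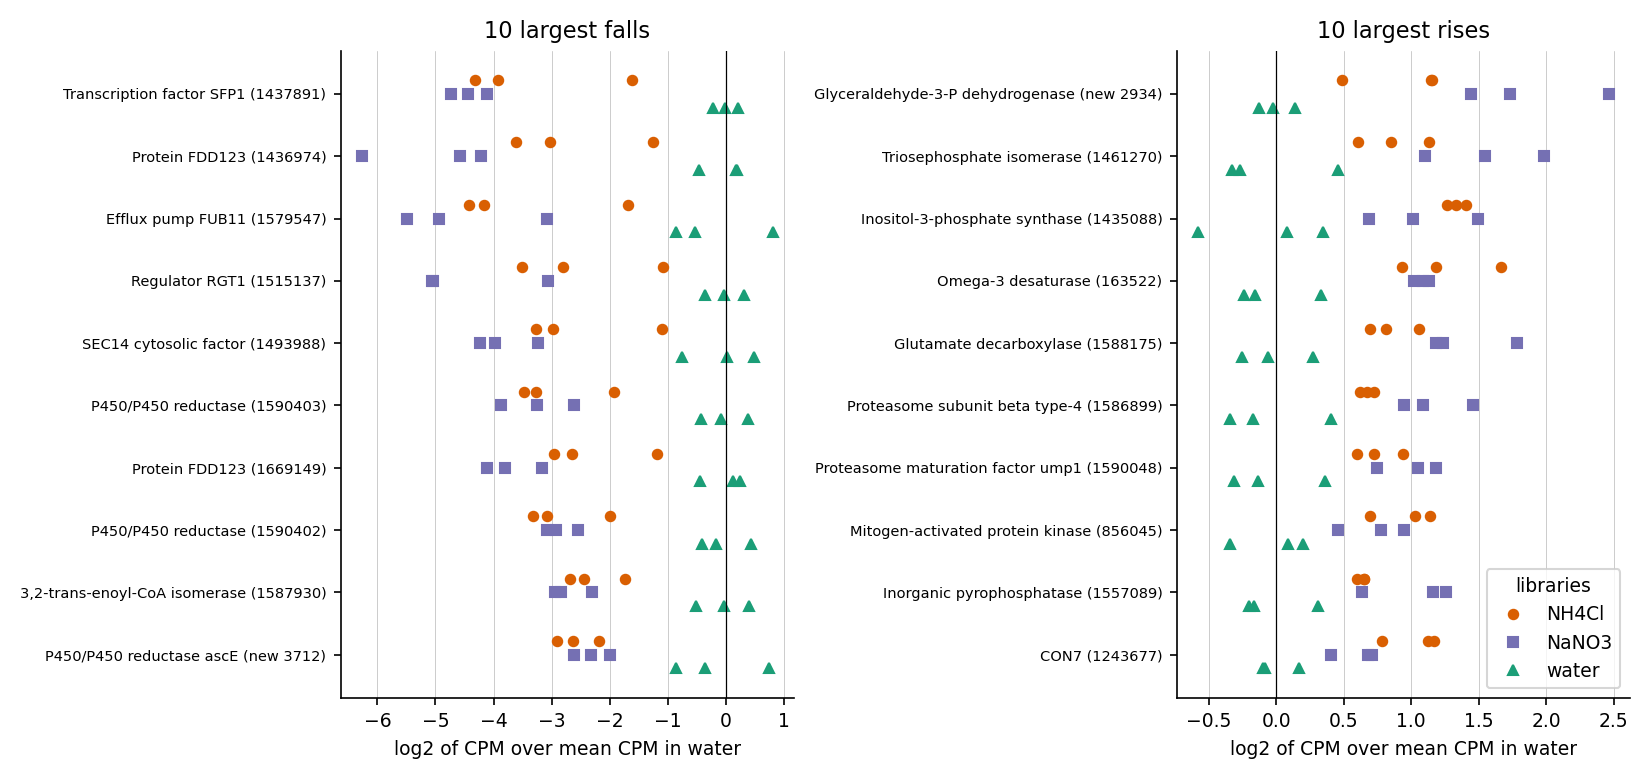
Each row is 1 of the 10 largest called falls (left) or rises (right) among non-overlapping genes with a named product and at least 10 FPKM on the higher side; points give each library's CPM over the mean of the water libraries on a log2 scale, with NH4Cl as circles, NaNO3 as squares and water as triangles from top to bottom of each row. Every salt point lies outside the water points of its row, and in each fall but the last the salt library nearest to water is an NH4Cl library.

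The proton pump of the plasma membrane and several carriers fell. The plasma membrane ATPase (BC629DRAFT_1442883), the proton pump that powers uptake by secondary transporters in fungi, had 4658, 1824 and 1936 CPM with NH4Cl, 2610, 1873 and 1210 CPM with NaNO3 and 8696, 11270 and 12600 CPM with water. The mean with water was 4.62 times that with salts, and the highest salt library, the 1st of NH4Cl, stayed well under the lowest water library. The log2 change was -2.23 ± 0.37 (adjusted p = 0.0186), between -2.49 and -2.07 without 1 library, with the call kept in 3 of 9 fits. A hexose transporter (BC629DRAFT_1596147) had 14.3, 11.3 and 8.99 CPM with NH4Cl, 7.38, 12.4 and 7.72 CPM with NaNO3 and 24.0, 49.6 and 55.1 CPM with water, and fell by a log2 change of -2.06 ± 0.28 (adjusted p = 0.0137, kept in 6 of 9 fits). Of 24 sugar transporters tested, it was the 1 with separate sides (4.17%), beside 8.00% of all genes below water and 3.91% above.

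Amino acid and peptide transporters gave 6 called falls and 0 called rises among 71 tested, beside 3.69% and 0.655% of all genes. With DESeq2's test these were 7 and 0, beside 916 and 595 of all 14808 genes. All salt libraries lay below water for 5 (7.04%), near the 8.00% of all genes. None of the 71 lay above water, beside 3.91% of all genes. Here too entries may be pieces of the same gene: without the genes new to the annotation, 3 of 50 lay below water and 3 were called lower. The lysine-specific permease (BC629DRAFT_238992) had 256, 168 and 164 CPM with NH4Cl, 210, 150 and 122 CPM with NaNO3 and 479, 556 and 470 CPM with water. The salt libraries were close to each other and all below the lowest water library, with a change of -1.50 ± 0.21 (adjusted p = 0.0152, kept in 5 of 9 fits). Glutathione transporter 1 (BC629DRAFT_268540) fell by a log2 change of -1.19 ± 0.19 (adjusted p = 0.0176, kept in 5 of 9 fits). NewGene_1529, with the same product name, stood at 0.338 to 0.496 of its level in every library and may share its reads. A gene named for the efflux pump FUB11 (BC629DRAFT_1579547), a fusaric acid exporter of Fusarium, had 63.6, 9.51 and 11.5 CPM with NH4Cl, 24.2, 6.64 and 4.54 CPM with NaNO3 and 142, 360 and 113 CPM with water. Its water libraries were widely scattered, with the 2nd far above the others, and the change of -3.49 ± 0.74 (adjusted p = 0.0378) was called in 2 of 9 fits.

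Fatty acid degradation genes fell more often than they rose, and held the highest share below water of the lists with at least 10 genes tested. Of 65 genes, 20 (30.8%) lay below water and 1 (1.54%) above, beside 8.00% and 3.91% of all genes. The test called 16 lower and 0 higher, beside 3.69% and 0.655% of all genes. DESeq2's test called 18 lower and 1 higher, beside 916 and 595 of all 14808 genes. Leaving out 1 library gave 0 to 15 called lower with a list median between -0.335 and -0.185, against -0.288 with all libraries. Several entries may be pieces of the same gene: without the genes new to the annotation, 13 of 50 lay below water and 9 were called lower. The 3,2-trans-enoyl-CoA isomerase (BC629DRAFT_1587930), which moves double bonds so that unsaturated fatty acids can be β-oxidised, had 212, 110 and 130 CPM with NH4Cl, 144, 92.1 and 98.9 CPM with NaNO3 and 694, 494 and 939 CPM with water. Both salts gave like levels, each far below water, with a log2 change of -2.45 ± 0.27 (adjusted p = 0.0137, kept in 6 of 9 fits). Peroxisomal 3-ketoacyl-CoA thiolase (BC629DRAFT_1276227), the last step of the β-oxidation cycle, had 171 ± 26.3 CPM with salts and 312 ± 22.4 CPM with water (SD, n = 6 and 3), a change of -0.87 ± 0.15 (adjusted p = 0.0192, kept in 3 of 9 fits). A long-chain fatty acid-CoA ligase (BC629DRAFT_1589998), which activates fatty acids, had 51.2 ± 5.27 CPM with salts and 89.6 ± 5.28 CPM with water, a change of -0.81 ± 0.12 (adjusted p = 0.0161, kept in 5 of 9 fits). Lipid droplet phospholipase 1 (BC629DRAFT_1276299), an enzyme on the lipid stores of yeast and outside this list, fell by a log2 change of -1.82 ± 0.24 (adjusted p = 0.0137, kept in 6 of 9 fits).

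Fused cytochrome P450 and P450 reductase enzymes, some of which hydroxylate fatty acids in other fungi, made up part of that list. BC629DRAFT_1590403 had 11.8, 4.61 and 4.01 CPM with NH4Cl, 7.33, 3.04 and 4.68 CPM with NaNO3 and 42.2, 33.3 and 58.5 CPM with water. BC629DRAFT_1590402, the next locus tag, differed from it by a factor of 0.826 to 1.52 in every library, and the pair may be 1 gene. Their changes were -2.93 ± 0.38 and -2.75 ± 0.30 (adjusted p = 0.0137 for both, kept in 6 of 9 fits). NewGene_3712 and BC629DRAFT_1583529, both named ascE, stood in a ratio of 1.38 to 2.07 and are likewise uncertain as separate genes. NewGene_3712 fell by a log2 change of -2.41 ± 0.32 (adjusted p = 0.0137, kept in 6 of 9 fits). Over all 177 P450 genes tested, 21 (11.9%) lay below water and 5 (2.82%) above, beside 8.00% and 3.91% of all genes. Of these 177, 17 were called lower and 1 higher, beside 3.69% and 0.655% of all genes. DESeq2's test called 22 lower and 4 higher, beside 916 and 595 of all 14808 genes. Cytochrome P450 61 (BC629DRAFT_1580530), a desaturase of ergosterol synthesis in yeast, had 207, 126 and 127 CPM with NH4Cl, 134, 204 and 118 CPM with NaNO3 and 299, 554 and 584 CPM with water, a change of -1.65 ± 0.28 (adjusted p = 0.0188, kept in 4 of 9 fits).

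Peroxisome genes, some of which also belong to fatty acid degradation, gave falls as well. Of 87 tested, 20 (23%) lay below water and 4 (4.60%) above, beside 8.00% and 3.91% of all genes. The test called 14 lower and 0 higher (0 to 16 lower without 1 library), beside 3.69% and 0.655% of all genes. DESeq2's test called 19 lower and 3 higher, beside 916 and 595 of all 14808 genes. The median of the list was -0.110, beside -0.0194 over all genes. The test called 2 genes for the peroxisomal targeting signal receptor, which brings enzymes into peroxisomes, as lower. BC629DRAFT_1473385 had 58.1, 43.0 and 43.0 CPM with NH4Cl, 35.2, 27.5 and 33.7 CPM with NaNO3 and 86.3, 99.3 and 83.3 CPM with water, a change of -1.19 ± 0.14 (adjusted p = 0.0137, kept in 6 of 9 fits). The other, BC629DRAFT_1436708, changed by -0.80 ± 0.13 (adjusted p = 0.0182, kept in 4 of 9 fits). A gene with a PEX11 domain, the domain of a peroxisome-dividing protein (BC629DRAFT_855570), fell by a log2 change of -0.86 ± 0.14 (adjusted p = 0.0176, kept in 5 of 9 fits). Mitochondrial manganese superoxide dismutase (BC629DRAFT_1283329), which the pathway list also holds, was above water instead. It had 1419, 2028 and 2232 CPM with NH4Cl, 1930, 2333 and 1715 CPM with NaNO3 and 1234, 1111 and 1014 CPM with water, with no call (log2 0.79 ± 0.22, adjusted p = 0.0850).

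**Figure D4:**
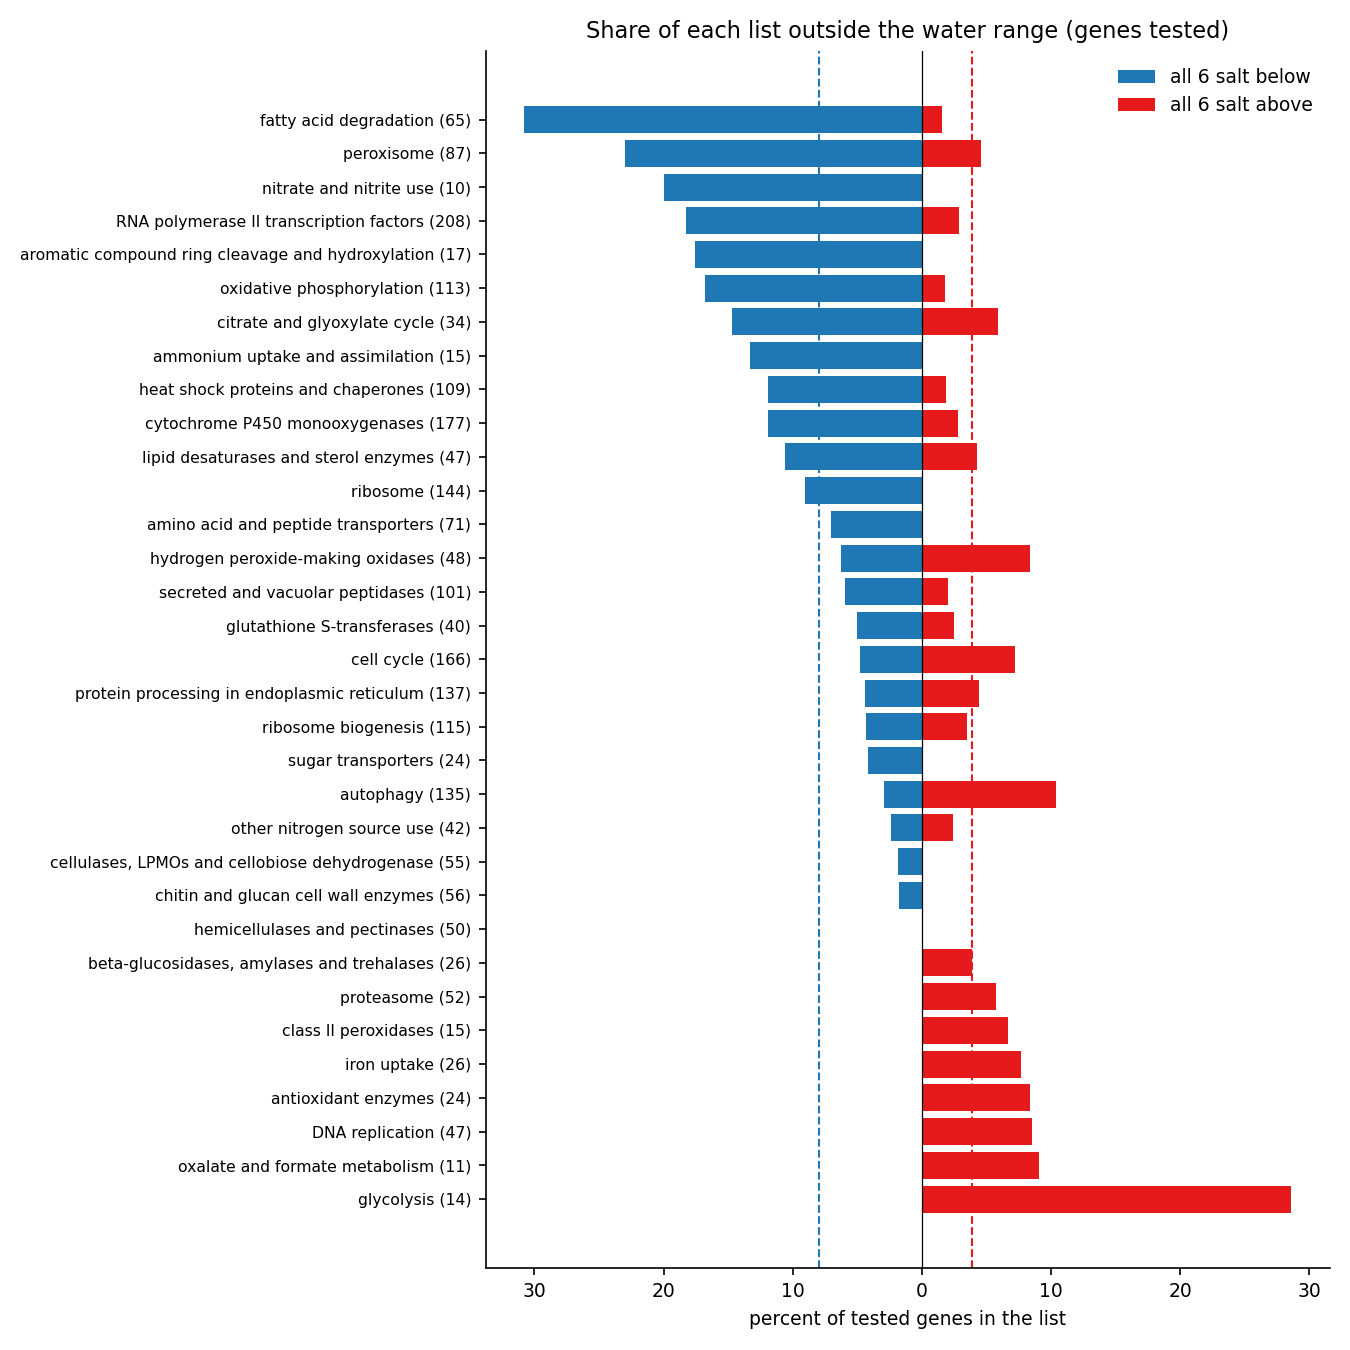
For each list with at least 10 genes tested (number in brackets), bars to the left give the percent of genes with all 6 salt libraries below water and bars to the right the percent with all 6 above. Dashed lines mark the shares over all genes tested, 8.00% below and 3.91% above. Fatty acid degradation (30.8%) and peroxisome (23%) reach furthest to the left and glycolysis (28.6%) furthest to the right.

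In the citrate cycle, 5 of 34 genes (14.7%) lay below water and 2 (5.88%) above, beside 8.00% and 3.91% of all genes. The test called 2 lower and 0 higher, beside 3.69% and 0.655% of all genes. DESeq2's test called 6 lower and 1 higher, beside 916 and 595 of all 14808 genes. At an unadjusted p under 0.05 edgeR gave 18 lower and 1 higher, beside 3218 of all 14808 genes in either direction. The list median was -0.466. Fumarate hydratase (BC629DRAFT_1588922), which hydrates fumarate to malate, had 249, 157 and 155 CPM with NH4Cl, 219, 283 and 200 CPM with NaNO3 and 509, 598 and 647 CPM with water. The highest salt library lay well under the lowest water library, and the change was -1.48 ± 0.20 (adjusted p = 0.0137, kept in 6 of 9 fits). NAD-dependent isocitrate dehydrogenase subunit 1 (BC629DRAFT_1638504) had 61.7 ± 15.2 CPM with salts and 106 ± 8.91 CPM with water, a change of -0.82 ± 0.14 (adjusted p = 0.0208, kept in 3 of 9 fits). The 2 isocitrate lyase genes of the glyoxylate shunt had lower fitted levels with salts, but their sides overlapped and neither was called (log2 -1.19 for BC629DRAFT_1506710, adjusted p = 0.128, and -1.39 for BC629DRAFT_316256, adjusted p = 0.117).

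Respiratory genes below water outnumbered those above, as was so over all genes. Of 113 oxidative phosphorylation genes, a list that also holds the plasma membrane ATPase, 19 (16.8%) lay below water and 2 (1.77%) above, beside 8.00% and 3.91% of all genes. The test called 8 lower and 1 higher (0 to 8 lower without 1 library), beside 3.69% and 0.655% of all genes. DESeq2's test called 14 lower and 4 higher, beside 916 and 595 of all 14808 genes. Subunits of the bc1 complex and of ATP synthase were among the genes edgeR called lower. Subunit 2 of the bc1 complex (BC629DRAFT_1498276) had 116, 89.3 and 99.7 CPM with NH4Cl, 119, 102 and 108 CPM with NaNO3 and 209, 209 and 160 CPM with water, a change of -0.87 ± 0.14 (adjusted p = 0.0185, kept in 3 of 9 fits). The beta subunit of ATP synthase (BC629DRAFT_1466228) changed by -0.71 ± 0.15 (adjusted p = 0.0363, kept in 2 of 9 fits). Cytochrome c (BC629DRAFT_1518035), the electron carrier that the pathway list leaves out, had 158, 60.2 and 74.8 CPM with NH4Cl, 244, 129 and 89.4 CPM with NaNO3 and 462, 534 and 643 CPM with water. Its salt libraries were spread over a wide range, all of it under water, and it fell by a log2 change of -2.15 ± 0.37 (adjusted p = 0.0192, kept in 4 of 9 fits). Alternative oxidase (BC629DRAFT_138635), which bypasses part of the chain, fell by a log2 change of -1.63 ± 0.29 (adjusted p = 0.0212, kept in 2 of 9 fits). The mitochondrial phosphate carrier (BC629DRAFT_1729325) fell by -1.51 ± 0.28 (adjusted p = 0.0256, kept in 2 of 9 fits). The ADP/ATP carrier (BC629DRAFT_1670689) had 1713, 1090 and 1004 CPM with NH4Cl, 1696, 1707 and 1416 CPM with NaNO3 and 2702, 2649 and 2577 CPM with water and was not called (log2 -0.89 ± 0.22, adjusted p = 0.0577). The 1 called rise was inorganic pyrophosphatase (BC629DRAFT_1557089), which drives biosynthesis by splitting pyrophosphate, at 0.84 ± 0.19 (adjusted p = 0.0434, kept in 1 of 9 fits). Its counterpart BC629DRAFT_1517496 stood at 3.27 to 3.80 times its level in every library, so shared reads are possible.

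Heat shock proteins and chaperones included 13 of 109 genes below water (11.9%) and 2 above (1.83%), beside 8.00% and 3.91% of all genes. The test called 7 lower and 0 higher, beside 3.69% and 0.655% of all genes. DESeq2's test called 9 lower and 4 higher, beside 916 and 595 of all 14808 genes. The list median of -0.0193 turned to 0.0189 with DESeq2 size factors. Mitochondrial Hsp60 (BC629DRAFT_1442395), the chaperonin that folds imported proteins, had 94.9, 58.4 and 62.6 CPM with NH4Cl, 57.1, 68.5 and 74.0 CPM with NaNO3 and 146, 167 and 150 CPM with water. It fell by a log2 change of -1.15 ± 0.17 (adjusted p = 0.0159, kept in 6 of 9 fits), and NewGene_1958, a second Hsp60 entry at 0.274 to 0.372 of its level, may share its reads. An Hsp70 (BC629DRAFT_1435258) changed by -0.89 ± 0.17 (adjusted p = 0.0283, kept in 3 of 9 fits) and the disaggregase Hsp104 (BC629DRAFT_1279522) by -0.61 ± 0.12 (adjusted p = 0.0324, kept in 1 of 9 fits).

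Of 47 lipid desaturases and sterol enzymes, 5 (10.6%) lay below water and 2 (4.26%) above, near the 8.00% and 3.91% of all genes. In this list 2 were called lower and 1 higher, beside 3.69% and 0.655% of all genes. Without the genes new to the annotation 1 was called lower. NewGene_3410 and BC629DRAFT_1646314, both named Delta(7)-sterol 5(6)-desaturase, stood in a ratio of 1.61 to 1.85 in every library and may share reads. The following 3 lipid enzymes stand outside that list. Subunit 2 of serine palmitoyltransferase (BC629DRAFT_1276112), the first enzyme of sphingolipid synthesis, had 94.8 ± 23.7 CPM with salts and 223 ± 28.9 CPM with water (SD, n = 6 and 3), a change of -1.24 ± 0.18 (adjusted p = 0.0154, kept in 5 of 9 fits). The sphingolipid hydroxylase SUR2 (BC629DRAFT_1287629) changed by -1.23 ± 0.19 (adjusted p = 0.0161, kept in 5 of 9 fits). A psi-producing oxygenase A (BC629DRAFT_1594217), which makes oxylipin signals in Aspergillus nidulans, had 221 ± 82.1 CPM with salts and 779 ± 130 CPM with water, a change of -1.83 ± 0.31 (adjusted p = 0.0186, kept in 5 of 9 fits).

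No gene for ammonium or nitrate use was called by edgeR, beside 3.69% of all genes called lower and 0.655% higher. Of 15 ammonium uptake and assimilation genes, 2 (13.3%) lay below water and 0 above, beside 8.00% and 3.91% of all genes. At an unadjusted p under 0.05 edgeR gave 3 lower and 1 higher of these, beside 3218 of all 14808 genes in either direction. DESeq2's test called 1 lower and 1 higher, beside 916 and 595 of all genes. The ammonium transporter MEP3 (BC629DRAFT_1491064) had 15.9, 15.0 and 7.67 CPM with NH4Cl, 7.88, 9.35 and 16.0 CPM with NaNO3 and 18.6, 20.6 and 21.3 CPM with water (log2 -0.76 ± 0.27, adjusted p = 0.156). NADP-specific glutamate dehydrogenase (BC629DRAFT_747089), which joins ammonium to 2-oxoglutarate, had 3.23 ± 0.664 CPM with salts and 5.69 ± 1.05 CPM with water (log2 -0.82 ± 0.20, adjusted p = 0.0623). Of 10 nitrate and nitrite genes, 3 were lower and 1 higher at an unadjusted p under 0.05 in edgeR, and DESeq2's test called 1 higher and 0 lower. All salt libraries lay below water for 2 (20%) and above for 0, and the 2 included nitrite reductase (BC629DRAFT_1591045), which makes ammonium from nitrite. It had 29.0, 33.6 and 35.4 CPM with NH4Cl, 32.1, 40.0 and 45.8 CPM with NaNO3 and 48.5, 47.0 and 47.0 CPM with water (log2 -0.41 ± 0.13, adjusted p = 0.122). The 3rd NaNO3 library came close to water, and the groups of the 2 salts overlapped.

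Glycolysis, the path from glucose to pyruvate, had the highest share above water of the lists with at least 10 genes tested. All 14 genes tested had a fitted change above 0. Of these, 4 (28.6%) had all salt libraries above water and 0 below, beside 3.91% and 8.00% of all genes. edgeR called 2 higher and 0 lower, beside 0.655% and 3.69% of all genes. DESeq2's test called 9 higher and 0 lower, beside 595 and 916 of all 14808 genes. The list median was 0.602, with 0.317 for NH4Cl minus water and 1.30 for NaNO3 minus water, which share the water libraries. The pooled median lay between 0.494 and 0.728 when 1 library was left out, while the number called lay between 0 and 4, and it was 0.457 without the 2 libraries that stood apart. A glyceraldehyde-3-phosphate dehydrogenase (NewGene_2934), which oxidises triose phosphate, had 201, 316 and 319 CPM with NH4Cl, 791, 475 and 388 CPM with NaNO3 and 131, 158 and 141 CPM with water. Every NaNO3 library lay above every NH4Cl library, and the 1st NaNO3 library, 1 of the 2 that stood apart, was highest. The change was 1.45 ± 0.27 (adjusted p = 0.0266, kept in 2 of 9 fits) and 1.24 without the 2 libraries (adjusted p = 0.0198). Triosephosphate isomerase (BC629DRAFT_1461270) had 14.5, 17.1 and 20.8 CPM with NH4Cl, 37.6, 27.8 and 20.4 CPM with NaNO3 and 13.1, 7.90 and 7.60 CPM with water, a change of 1.23 ± 0.26 (adjusted p = 0.0381, kept in 3 of 9 fits). Here the 1st water library almost reached the 1st NH4Cl library.

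Enolase and pyruvate kinase had separate sides without a call. Enolase (BC629DRAFT_1467074) had 887, 1717 and 1603 CPM with NH4Cl, 2109, 1189 and 988 CPM with NaNO3 and 683, 546 and 560 CPM with water (log2 1.25 ± 0.32, adjusted p = 0.0715). Pyruvate kinase (BC629DRAFT_1588583) had 146, 194 and 205 CPM with NH4Cl, 695, 288 and 218 CPM with NaNO3 and 138, 104 and 85.6 CPM with water (log2 1.30 ± 0.38, adjusted p = 0.0938). In each the 1st NaNO3 library was highest, and without both libraries that stood apart the changes were 1.02 (adjusted p = 0.0494) and 0.94 (adjusted p = 0.0400). Of the enzymes that run the path backwards, 2 had separate sides in the other direction. Fructose-1,6-bisphosphatase (BC629DRAFT_1013525) had 727 ± 129 CPM with salts and 1067 ± 90.8 CPM with water (log2 -0.55 ± 0.19, adjusted p = 0.147). Phosphoenolpyruvate carboxykinase (BC629DRAFT_1579959) had 453 ± 127 CPM with salts and 814 ± 184 CPM with water (log2 -0.85 ± 0.26, adjusted p = 0.107). Neither was called.

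**Figure D5:**
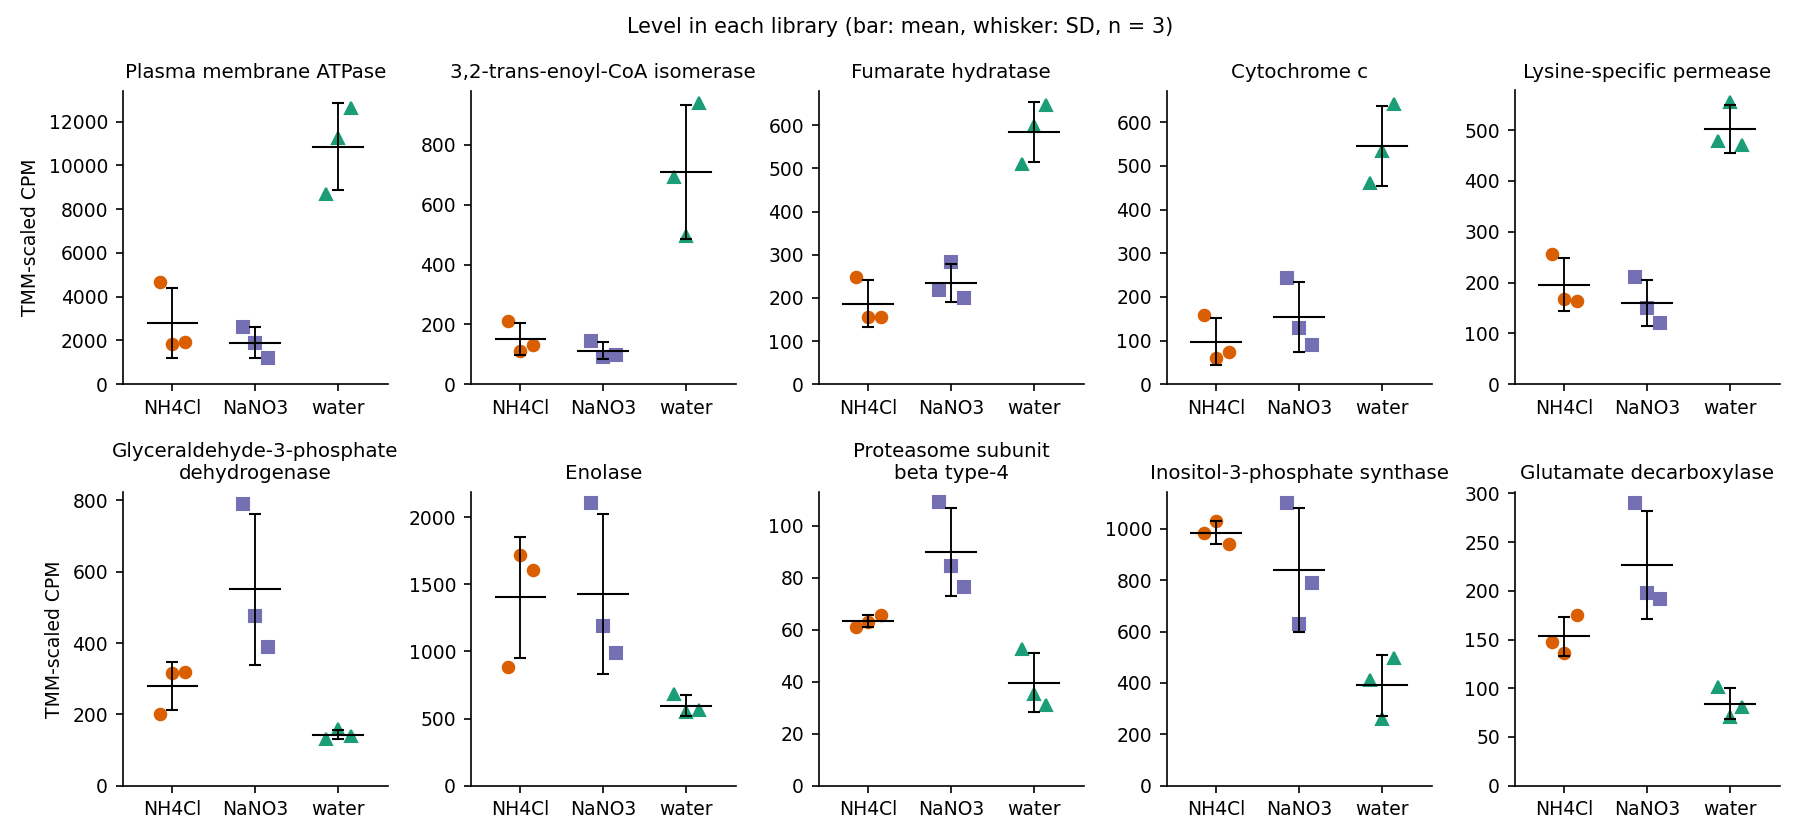
TMM-scaled CPM (y axis, from 0, a scale for each panel) of 5 genes lower with salts (top) and 5 higher with salts (bottom) in each library of NH4Cl, NaNO3 and water, with the mean as a line and the SD as a whisker (n = 3). In every panel all salt points lie on one side of all water points, and among the 5 higher genes the 1st NaNO3 library (left square) is the highest NaNO3 point.

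Proteasome genes, which encode the complex that degrades ubiquitin-tagged proteins, were mostly higher in fitted level with few calls. Of 52 genes, 48 had a fitted change above 0 and 4 below, and the median was 0.462. edgeR called 4 higher and 0 lower, beside 0.655% and 3.69% of all genes. DESeq2's test called 16 higher and 0 lower, beside 595 and 916 of all 14808 genes. Separate sides were found for 3 genes (5.77%) above and 0 below, beside 3.91% and 8.00% of all genes. Leaving out 1 library put the median between 0.358 and 0.632 and the number called between 0 and 7. The median was 0.144 for NH4Cl minus water and 0.819 for NaNO3 minus water, which share the water libraries. Proteasome subunit beta type-4 (BC629DRAFT_1586899), part of the core particle, had 61, 63.1 and 65.5 CPM with NH4Cl, 109, 84.4 and 76.5 CPM with NaNO3 and 52.4, 35.1 and 31.2 CPM with water. NaNO3 libraries were highest and the 1st water library came closest to the salts, with a change of 0.93 ± 0.20 (adjusted p = 0.0377, kept in 2 of 9 fits). The maturation factor ump1 (BC629DRAFT_1590048), an assembly chaperone of the core, changed by 0.88 ± 0.19 (adjusted p = 0.0388, kept in 2 of 9 fits) and subunit beta type-3 (BC629DRAFT_1461216) by 0.69 ± 0.16 (adjusted p = 0.0473, kept in 1 of 9 fits). A ubiquitin-conjugating enzyme (BC629DRAFT_1289858), at 1946 FPKM with salts and 1266 FPKM with water, had separate sides with no call (log2 0.54 ± 0.20, adjusted p = 0.171).

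Further large rises were found in enzymes of inositol, lipid and γ-aminobutyrate synthesis and in a signalling kinase. Inositol-3-phosphate synthase (BC629DRAFT_1435088), the first step of inositol synthesis, had 985, 1032 and 940 CPM with NH4Cl, 1102, 629 and 789 CPM with NaNO3 and 413, 261 and 497 CPM with water, a change of 1.22 ± 0.27 (adjusted p = 0.0408, kept in 1 of 9 fits). An acyl-lipid omega-3 desaturase (BC629DRAFT_163522), which makes polyunsaturated fatty acids, had 39.2, 65.2 and 46.8 CPM with NH4Cl, 41.7, 43.6 and 45.1 CPM with NaNO3 and 25.9, 17.4 and 18.4 CPM with water. Both salts gave like levels apart from a high 2nd NH4Cl library, and the change was 1.19 ± 0.20 (adjusted p = 0.0186, kept in 5 of 9 fits). Glutamate decarboxylase (BC629DRAFT_1588175), which turns glutamate into γ-aminobutyrate, had 148, 136 and 176 CPM with NH4Cl, 290, 198 and 192 CPM with NaNO3 and 102, 70.5 and 80.7 CPM with water. NaNO3 libraries were highest and water libraries lowest, with a change of 1.15 ± 0.20 (adjusted p = 0.0210, kept in 5 of 9 fits). A mitogen-activated protein kinase (BC629DRAFT_856045) had 128 ± 21.4 CPM with salts and 70.5 ± 13.2 CPM with water (SD, n = 6 and 3), a change of 0.85 ± 0.19 (adjusted p = 0.0406, kept in 2 of 9 fits).

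Autophagy genes, which serve the recycling of cell contents, gave few calls. Of 135 tested, 14 (10.4%) lay above water and 4 (2.96%) below, beside 3.91% and 8.00% of all genes. edgeR called 1 higher and 1 lower, beside 0.655% and 3.69% of all genes. DESeq2's test called 10 higher and 4 lower, beside 595 and 916 of all 14808 genes. The called rise was TIP41 (BC629DRAFT_1291825), a regulator of the TOR pathway in yeast, at 29.2 ± 3.01 CPM with salts and 20.2 ± 1.69 CPM with water (log2 0.53 ± 0.12, adjusted p = 0.0496, kept in 2 of 9 fits). ATG3 (BC629DRAFT_1500940), which conjugates a lipid to the autophagosome marker, had 61.1 CPM with salts and 40.7 CPM with water on average and was not called (adjusted p = 0.108). Cell cycle genes gave 12 of 166 above (7.23%) and 8 below (4.82%), beside 3.91% and 8.00% of all genes. Of the 166, 1 was called higher and 5 lower, beside 0.655% and 3.69% of all genes. The DNA replication list gave 4 of 47 above (8.51%) and 0 below, with 1 called higher and 0 lower, beside the same shares of all genes. The called entry is annotated as the mRNA stability protein mug134 (BC629DRAFT_1591427), a name that does not mark it as a replication gene. Its log2 change was 0.58 ± 0.12 (adjusted p = 0.0364, kept in 2 of 9 fits). DESeq2's test called 8 cell cycle genes higher and 6 lower, and 5 of the DNA replication list higher and 0 lower. Over all 14808 genes it called 595 and 916. Of 144 ribosome genes, 13 (9.03%) lay below water, near the 8.00% of all genes, and 0 above. The test called 3 lower, not above the 3.69% of all genes, and 131 had a fitted change below 0. Their median of -0.178 turned to 0.0428 without the 2 libraries that stood apart. DESeq2's test called 9 ribosome genes lower and 0 higher, beside 916 and 595 of all 14808 genes.

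Few wood-decay enzymes had separate sides, while 3.91% of all genes lay above water and 8.00% below. Of 55 genes in the list of cellulases, LPMOs and cellobiose dehydrogenases, 0 lay above water and 1 below, although the list median was 1.23. The 1 below is annotated as glucan 1,3-beta-glucosidase 3 (BC629DRAFT_1672000), which the list of chitin and glucan cell wall enzymes also holds. The list median was -0.117 without the 3rd NH4Cl library and -0.400 without that library and the 1st NaNO3 library, and leaving out any 1 of the others gave 0.769 to 1.55. None of the 50 hemicellulases and pectinases had separate sides. Of 15 class II peroxidases, 1 lay above water, a versatile peroxidase (BC629DRAFT_295458) with 9.72 ± 0.950 CPM with salts and 7.74 ± 0.796 CPM with water (adjusted p = 0.184). A dye-decolorizing peroxidase (BC629DRAFT_1580630), which oxidises dyes and lignin models, had 208, 333 and 123 CPM with NH4Cl, 597, 122 and 253 CPM with NaNO3 and 115, 48.6 and 50.6 CPM with water. The salt libraries were widely spread, the 1st water library lay just under the lowest of them, and there was no call (log2 1.91 ± 0.58, adjusted p = 0.104). edgeR called no gene of these groups in either direction, beside 0.655% of all genes called higher and 3.69% called lower. At an unadjusted p under 0.05 it gave 1 cellulase-list gene lower, the glucan 1,3-beta-glucosidase. It gave 3 hemicellulases and pectinases, 1 class II peroxidase and 2 of 5 dye-decolorizing peroxidases higher. Over all 14808 genes it gave 3218 at that level in either direction. DESeq2's test called 1 of the hemicellulases and pectinases and 2 dye-decolorizing peroxidases higher, beside 595 higher and 916 lower of all 14808 genes. Without the 2 libraries that stood apart edgeR called 1 dye-decolorizing peroxidase higher, beside 271 higher and 796 lower of 14913 genes.

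NH4Cl and NaNO3 could be compared directly within the genes with separate sides. Of all genes tested, 162 (1.09%) were called between NH4Cl and NaNO3, and 2 of these were among the 1764. Since the rule needs both salts on one side of water, it disfavours genes that differ between the salts, and nothing is read from that count. Both were higher with NH4Cl. An iron multicopper oxidase (NewGene_1730), an enzyme of high-affinity iron uptake in Ustilago maydis, had 5.97, 7.46 and 5.89 CPM with NH4Cl, 2.05, 2.59 and 2.89 CPM with NaNO3 and 1.37, 1.90 and 1.51 CPM with water. BC629DRAFT_1598913, with no named product, had 128, 128 and 113 CPM with NH4Cl, 73.0, 68.9 and 77.6 CPM with NaNO3 and 62.9, 58.7 and 54.3 CPM with water. In both the order was NH4Cl over NaNO3 over water with no overlap. NH4Cl minus NaNO3 was 1.36 ± 0.21 (adjusted p = 0.0332) and 0.75 ± 0.13 (adjusted p = 0.0416). For SFP1 the change was -2.76 with NH4Cl and -4.41 with NaNO3, and for the first FDD123 gene -2.27 and -4.79. These pairs of changes share the water libraries, and NH4Cl and NaNO3 were not called different for either gene (adjusted p = 0.191 and 0.104).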

How the data were processed

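Poly-A RNA of 9 libraries (3 each with NH4Cl, NaNO3 and distilled water) had been sequenced. The deposited table held raw counts per gene and FPKM made by the authors, with product, domain and pathway columns, per the file headers. HISAT2 and StringTie are named in the submitters' processing notes without versions, and the genome build is not given in the sources used here. Library totals ran from 17896230 to 23194078 counts.

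Counts were filtered (filterByExpr), TMM-scaled and tested with edgeR 4.0.16 in R 4.3.3 (quasi-likelihood, 3 group means, the mean of both salt groups minus water, and NH4Cl minus NaNO3), with Benjamini-Hochberg adjustment over all 14808 genes and a threshold of 0.05. Sides were compared in TMM-scaled CPM, where the rule itself speaks of raw counts. Standard errors are the unshrunk change divided by the square root of F. Alternatives used DESeq2 1.42.0 and limma 3.58.1 on log2(FPKM + 1) and log2(FPKM + 0.1). On simulated counts (14665 genes tested, salts against water), 43 of 50 genes set at a log2 change of -2, 9 of 50 at -1, 5 of 50 at 1 and 41 of 50 at 2 were recovered, and 8 unchanged genes were called. Equal replicate numbers did not pair libraries.

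The genes and the 36 gene lists, matched by product, domain and pathway names, were chosen with earlier results of these data known. Named by rule were the 10 largest called rises and falls with a named product and at least 10 FPKM, the 2 members of each list and the 5 genes a direction with the highest FPKM among those with separate sides, the genes next to the edge of the rule, and genes called between the salts. The other genes named were chosen after their values were seen. Gene names are those of the deposited annotation, mostly by similarity to proteins of other species. No sequence was used.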

Additional observations from a re-analysis of the deposited data

Results flagged for a closer look

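The 20 largest rises and falls were examined for a salt library far from the other 5. Dixon's test was run on log2 CPM at its 95% level, which chance passes for about 1 gene in 20. On that scale 2 of the 20 genes passed, and the CPM below are printed without the log. The 1st NH4Cl library was also the highest salt library for RGT1 and both called FDD123 genes, which did not pass on the log2 scale. For SFP1 (BC629DRAFT_1437891) the 1st NH4Cl library had 634 CPM while the other salt libraries had 72.9 to 128 CPM. For the omega-3 desaturase (BC629DRAFT_163522) the 2nd NH4Cl library had 65.2 CPM while the other salt libraries had 39.2 to 46.8 CPM.

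For 2 genes with all salt libraries above water the rise differed between the salts by the test of NH4Cl against NaNO3 in edgeR (adjusted over all genes). The iron multicopper oxidase (NewGene_1730) was 1.36 higher on the log2 scale with NH4Cl than with NaNO3 (adjusted p = 0.0332), and BC629DRAFT_1598913 was 0.75 higher (adjusted p = 0.0416). In both genes 3 of 3 NH4Cl libraries lay above 3 of 3 NaNO3 libraries.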

How the results depend on the processing

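Calls of salts against water moved with the model and the libraries. A 2-level model called 24 higher and 258 lower, DESeq2's test 595 and 916, limma on log2(FPKM + 0.1) 29 and 216 and limma on log2(FPKM + 1) 37 and 251. DESeq2 included all 643 edgeR calls. Without the 3rd NH4Cl and the 1st NaNO3 library 271 were called higher, and 564 of the 643 were kept. Leaving out 1 library gave 0 to 152 higher and 0 to 602 lower. DESeq2 size factors, no filter on low counts and leaving out new genes kept both counts within 1.5 times.

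Separate sides above water numbered 143 on raw counts, 1102 without the 2 libraries and 652 to 1282 without 1 library (below water 1268 to 1770). A gap of at least 1.5-fold left 5 above and 165 below. Genes called between the salts among those with separate sides numbered 57 by DESeq2's test, 1 by limma on log2(FPKM + 0.1), 5 without new genes, 54 without the 2 libraries and 0 to 18 without 1 library. The 2-level model cannot give this count. The cause of these shifts was not tested.

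With the replicate number as a block, 11 genes were called higher, 172 lower and 0 between the salts, and 177 of these 183 calls against water were among the 643. Deviations of libraries with equal numbers correlated between -0.388 and 0.422, so the pairing was not established.

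None of the 83 genes named by rule reversed direction in any of 18 settings they were run in (leaving out new genes could be run for 73). All but those just outside the edge of the rule were chosen for separate sides. Leaving out a library can hardly reverse such genes, so nothing is read from that result. In each fit without the 3rd NaNO3, the 2nd water or the 3rd water library all called genes among the 83, 36 in number, lost their call. In counts simulated at these depths and replicate numbers, 5 of 50 genes at a log2 change of 1 and 9 of 50 at -1 were recovered, and depth was not varied apart from the other settings.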

Other observations

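By broad functional class in the deposited annotation, genes with all salt libraries below water were 25 of 187 lipid transport and metabolism genes (13.4%) and 32 of 240 energy production genes (13.3%), beside 8.00% of all genes tested. Genes with all salt libraries above water were 10 of 88 cytoskeleton genes (11.4%) and 6 of 67 nucleotide metabolism genes (8.96%), beside 3.91% of all genes tested. These classes were picked for their high shares and carry no test. The actin-binding protein twinfilin (BC629DRAFT_1635037) rose with a log2 change of 0.61 ± 0.12 (edgeR adjusted p = 0.0281, kept in 2 of the 9 fits without 1 library), and guanylate kinase (BC629DRAFT_1287451), an enzyme of nucleotide synthesis, rose with a log2 change of 0.54 ± 0.12 (edgeR adjusted p = 0.0406, also kept in 2 of 9).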
